A study of Homo sapiens with 7 samples.

Results

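The genes described here are 7 of the 60591 rows of a count table from human TE11 cells: the alpha-arrestins ARRDC1, ARRDC2, ARRDC3 and ARRDC4, their relative TXNIP, and the transcription factors MLXIP (MondoA) and MLXIPL (ChREBP). They were chosen by a measured value, the log2 fold change of ARRDC3, which was the highest among well-expressed genes under diclofenac, and then as its family with the glucose-sensing factors that drive part of it. Their own differences between the groups are given below as a description, with no test. The labels describe TE11 as a line of esophageal squamous cell carcinoma cells. All cells grew in DMEM, a culture medium, with 10% fetal bovine serum. The vehicle group (n = 3 libraries) received 0.07% DMSO, the solvent, and the other group (n = 4) received 200 µM diclofenac, a nonsteroidal anti-inflammatory drug, both for 48 h. Nothing in the labels tells separate cultures from repeat libraries, so errors and p-values cover the spread between libraries, which may be technical.

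Alpha-arrestins are adaptor proteins of the inner face of cell membranes. Through short proline and tyrosine motifs they bring ubiquitin ligases of the NEDD4 family to membrane proteins, which are then taken up and sorted to endosomes. TXNIP shares the arrestin fold, binds thioredoxin and restrains glucose uptake. MondoA and ChREBP each pair with MLX, respond to glucose 6-phosphate and bind carbohydrate response elements. TXNIP and ARRDC4 are the best known direct targets of MondoA. Transcription of TXNIP in particular is widely used as a readout of MondoA.

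Total counts ran from 19878696 to 26490829 per library, and levels below are normalized CPM, that is, counts relative to the library total after TMM scaling. Genes with at least 1 count numbered 26762 to 27403 in the vehicle and 29683 to 30570 in the diclofenac libraries. Of the 18311 genes expressed highly enough to be tested, 59.7% were called different between the groups by edgeR at an adjusted p under 0.05, 30.2% higher and 29.5% lower under diclofenac. Such a large share of called genes makes the scaling matter. Scaling by total counts alone moved the log2 fold changes of all genes up by a median of 0.181, so each direction is relative to the bulk of genes. The labelled cell type was checked against its markers: all 6 basal squamous markers, among them KRT5, KRT14 and TP63, stayed under 1 normalized CPM in every library. Of 8 markers of squamous differentiation 6 did so too, and KRT6A, KRT4 and SPRR1B had no count at all. The exceptions were KRT10 and CNFN, both called lower under diclofenac by edgeR (adjusted p = 0.0155 and 0.0158). KRT10 stood at 28.8 ± 3.04 normalized CPM under vehicle and at 25.05 ± 0.871 under diclofenac (SD, n = 3 and 4). CNFN stood at 5.86 ± 1.40 and 4.05 ± 1.10, so part of this list was expressed. The epithelial keratin KRT18 stood at 67.8 ± 4.24 normalized CPM in the vehicle libraries (SD, n = 3) and at 57.0 ± 2.14 in the diclofenac libraries (SD, n = 4), while KRT8 stood at 9.92 ± 0.981 and 20.4 ± 2.43 and EPCAM at 1.99 ± 0.448 and 2.90 ± 0.369. Of the 5 epithelial markers edgeR thus called KRT8 and EPCAM higher and KRT18 lower, opposite moves behind sums of 77.5 to 85.0 under vehicle and 78.3 to 89.6 under diclofenac. CDH1 was not called, and KRT19 had 1 count over the vehicle and 2 over the diclofenac libraries. The general leukocyte marker PTPRC had 2 counts over the vehicle and 6 over the diclofenac libraries. Summed markers of fibroblasts (6 genes) ranged from 17.1 to 19.8 normalized CPM under vehicle and from 13.8 to 15.5 under diclofenac, mostly COL1A1, while DCN had 2 and 5 counts. The 4 endothelial markers were low, with sums from 0.268 to 0.447 normalized CPM under vehicle and from 0.592 to 1.08 under diclofenac. In such bulk RNA, fewer cells of a type and less RNA per cell cannot be told apart, and the part of these markers in the results below was not tested.

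Stretches of promoter sequence are shown first for the 3 family members that were most strongly higher under diclofenac. They come from RefSeq, build GRCh38.p14, in windows from 250 bases before to 50 bases after each annotated transcription start, and only bases before the start are printed. All 7 genes matched the RefSeq table, with TXNIP, ARRDC2 and ARRDC3 having 2 starts each. Capitals mark the motifs searched on both strands: CACGTG (the E-box), CCAAT (read as ATTGG on the other strand), GTAAACA (a core bound by forkhead factors) and TGATGNAA (bound by ATF4 with a partner). For TXNIP they also mark the 12 fixed bases of its best match to the carbohydrate response element, which is a pair of E-boxes set 5 bases apart.
TXNIP, chr1:145996630-145996729, minus strand: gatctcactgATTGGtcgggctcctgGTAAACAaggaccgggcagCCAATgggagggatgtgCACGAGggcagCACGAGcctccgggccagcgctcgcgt
ARRDC4, chr15:97960478-97960642, plus strand: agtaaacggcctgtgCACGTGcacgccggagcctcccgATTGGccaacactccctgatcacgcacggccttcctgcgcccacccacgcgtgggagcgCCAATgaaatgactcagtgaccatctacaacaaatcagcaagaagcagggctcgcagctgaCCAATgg
ARRDC3, outer start, chr5:91383508-91383567, minus strand: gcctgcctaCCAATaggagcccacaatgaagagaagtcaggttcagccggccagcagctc

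The TXNIP stretch held a match to the carbohydrate response element in 10 of its 12 fixed bases, starting 88 bases before the transcription start, and 1.01% of 35116 promoter windows held a match that good. The ARRDC4 window had 1 whole E-box, as did 7.26% of all windows, and its best match to the longer element had 9 of 12 bases, a level that 9.24% of windows reached. The outer ARRDC3 window reached 8 of 12, as 47.2% of windows did, and the inner one 9 of 12, and neither held an E-box. The windows of MLXIPL, of 1 ARRDC2 start and of MLX, which was lower under diclofenac, also reached 9 of 12. That of MLX held a whole E-box too, so neither that level nor the E-box separated the genes by direction. A CCAAT box was present in 34.6% of all windows. It occurred in the windows of TXNIP (2 copies), ARRDC4 (3 copies) and ARRDC3 (1 copy), but also in those of ARRDC1 and MLXIP, which were lower under diclofenac, so it did not separate the genes by direction. TGATGNAA was in none of these windows, which says only that these letters are not in them.

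The forkhead core GTAAACA occurred in the TXNIP window and at the inner start of ARRDC3, against 3.42% of all windows. Around it the 2 genes shared a run of 11 bases, shown in capitals, which was noticed after the windows had been read. The ARRDC3 stretch lies within an annotated exon of that gene and is printed on the plus strand, opposite to the gene, to allow the comparison.
TXNIP, chr1:145996684-145996711, minus strand: ggctccTGGTAAACAAGgaccgggcagc
ARRDC3, inner start, chr5:91380112-91380139, plus strand: gcgccgTGGTAAACAAGtgccgggctgt

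The run TGGTAAACAAG was present in 8 of the 35116 windows (0.0228%), among them that of ARRDC3-AS1, which starts beside the inner ARRDC3 start and reads the same DNA on the other strand. These matches describe the letters of the reference genome. No binding was measured.

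ARRDC3, which promotes the uptake and degradation of integrin beta 4, was the member that differed most between the groups. It stood at 7.19, 7.88 and 7.82 normalized CPM in vehicle replicates 1 to 3, and at 65.4, 69.3, 63.1 and 66.5 in diclofenac replicates 1 to 4. All 4 diclofenac libraries lay far above all 3 vehicle libraries, and the distance between the groups was many times the spread within either. The log2 fold change was 3.12 (SE 0.0640), or 8.67-fold. Among genes with a mean level above the median of tested genes, ARRDC3 came first and the next in order were MALAT1 at 2.44 and SLC16A9 at 2.34 on the log2 scale. A further 38 tested genes had a larger log2 fold change, and each of them had a mean level under that median.

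ARRDC4, whose gene is a direct target of MondoA, stood at 33.6, 35.0 and 36.6 normalized CPM under vehicle and at 69.96, 71.4, 74.6 and 74.6 under diclofenac. TXNIP stood at 21.2, 21.9 and 21.5 under vehicle and at 46.6, 49.7, 49.1 and 49.3 under diclofenac. In both genes the groups were far apart, and the 3 vehicle libraries of TXNIP had a coefficient of variation of 1.82%, less than the 4.54% that counting alone would give on average. The log2 fold changes were 1.05 (SE 0.0499) for ARRDC4 and 1.18 (SE 0.0522) for TXNIP, or 2.07-fold and 2.26-fold.

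**Figure D1:**
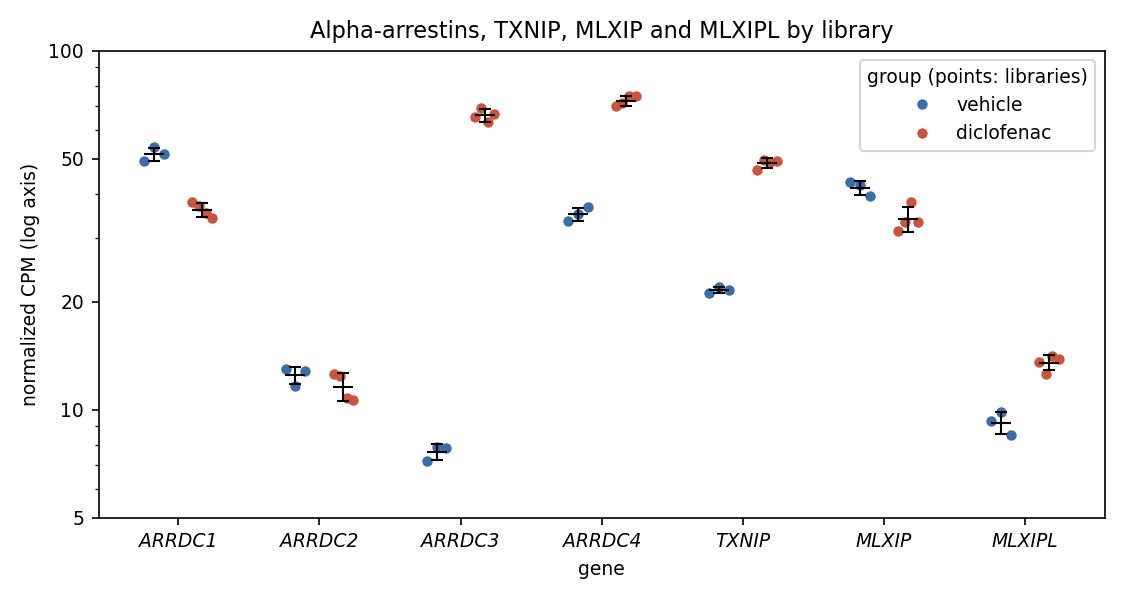
Normalized CPM (log axis) of the 7 genes in each library, with vehicle libraries in blue, diclofenac libraries in red, and black bars for the mean and SD. ARRDC3, ARRDC4, TXNIP and MLXIPL lie higher in all 4 diclofenac libraries, ARRDC1 and MLXIP lie lower, and the groups overlap for ARRDC2.

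ARRDC1, which is known for budding of vesicles from the plasma membrane with the ESCRT protein TSG101, was lower under diclofenac. Its levels were 49.4, 53.8 and 51.5 normalized CPM under vehicle and 37.8, 37.0, 35.3 and 34.2 under diclofenac, with no overlap (log2 fold change -0.51, SE 0.0520). ARRDC2, a less studied member, stood at 12.998, 11.7 and 12.8 under vehicle and at 12.6, 12.4, 10.8 and 10.6 under diclofenac. Here the libraries of the groups overlapped, and the log2 fold change of -0.11 (SE 0.0836) became 0.07 with libraries scaled only by their totals. ARRDC5, the remaining alpha-arrestin, had 0 counts in all 7 libraries, where 3 counts would be 0.113 to 0.151 CPM.

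MLXIP, which encodes MondoA, stood at 43.1, 42.1 and 39.4 normalized CPM under vehicle and at 31.5, 33.3, 37.8 and 33.4 under diclofenac, a log2 fold change of -0.29 (SE 0.0610). Diclofenac replicate 3 came close to the lowest vehicle library, so the groups were separate by little. MLXIPL, which encodes ChREBP and is best known from liver and fat, stood at 9.30, 9.83 and 8.49 under vehicle and at 13.6, 12.6, 14.1 and 13.8 under diclofenac (log2 fold change 0.56, SE 0.0801). By total counts alone the log2 fold change of MLXIP shrank to -0.11 (SE 0.0593), less than 2 SE from 0, and that of MLXIPL was 0.74.

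In all, 4 of the 7 genes lay above every vehicle library in each diclofenac library, as did 29.5% of all tested genes, 2 lay below and 1 overlapped. The groups did not overlap in 58.5% of all tested genes. Since the contrast chose the genes, nothing is read from that count. All 7 passed the filter on low counts.

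**Figure D2:**
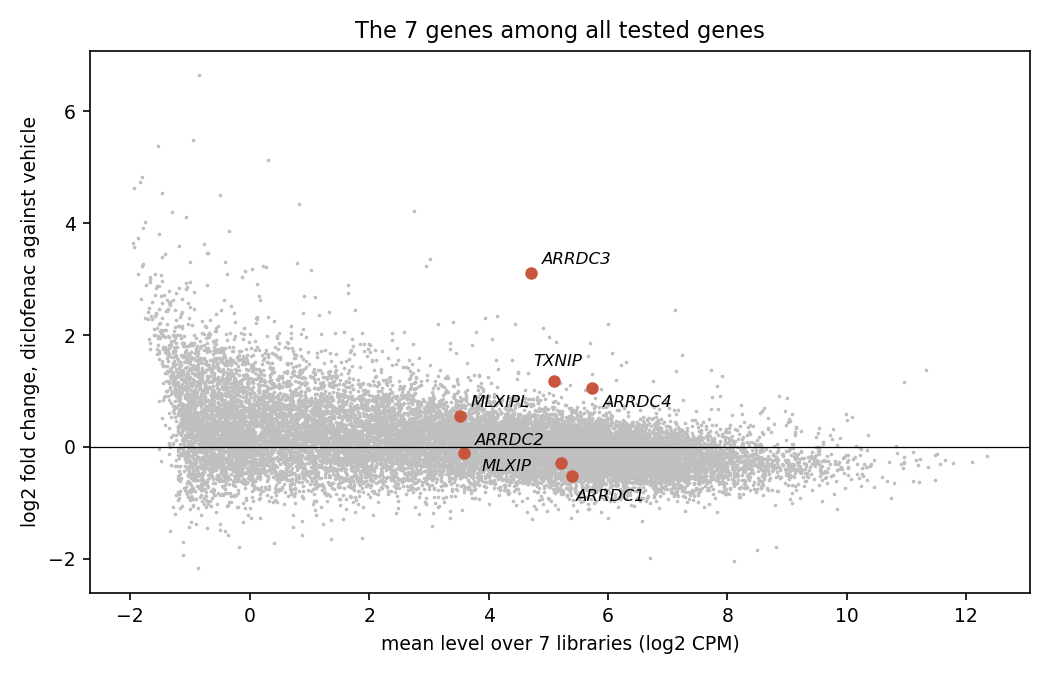
Log2 fold change of diclofenac against vehicle for all 18311 tested genes (grey), plotted against the mean level over 7 libraries in log2 CPM, with the 7 genes in red. ARRDC3 at 3.12 stands above the other genes of its level, ARRDC4 and TXNIP lie near 1, and the remaining 4 lie within the grey band.

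Ratios of raw counts within a library do not depend on the scaling. ARRDC3 had 0.218 ± 0.00669 counts for each ARRDC4 count under vehicle and 0.911 ± 0.0541 under diclofenac (SD, n = 3 and 4), so the genes came near parity. Against TXNIP the ratio went from 0.354 ± 0.0125 to 1.36 ± 0.0543, and ARRDC3 passed TXNIP in counts in every diclofenac library. TXNIP and ARRDC4 kept closer to each other, at 0.615 ± 0.0230 and 0.670 ± 0.0178 TXNIP counts for each ARRDC4 count. The 3 vehicle ratios (0.589 to 0.629) still lay below all 4 diclofenac ratios (0.659 to 0.697).

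Among the factors, MLXIPL had 0.221 ± 0.0102 counts for each MLXIP count under vehicle and 0.399 ± 0.0284 under diclofenac, with no overlap. The ratio of MLX, the partner of both, to MLXIP was 1.54 ± 0.117 and 1.41 ± 0.157, and here the groups overlapped. TXNIP, which binds and inhibits thioredoxin, had 0.0511 ± 0.00262 counts for each count of TXN, the thioredoxin gene, under vehicle and 0.148 ± 0.00788 under diclofenac.

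**Figure D3:**
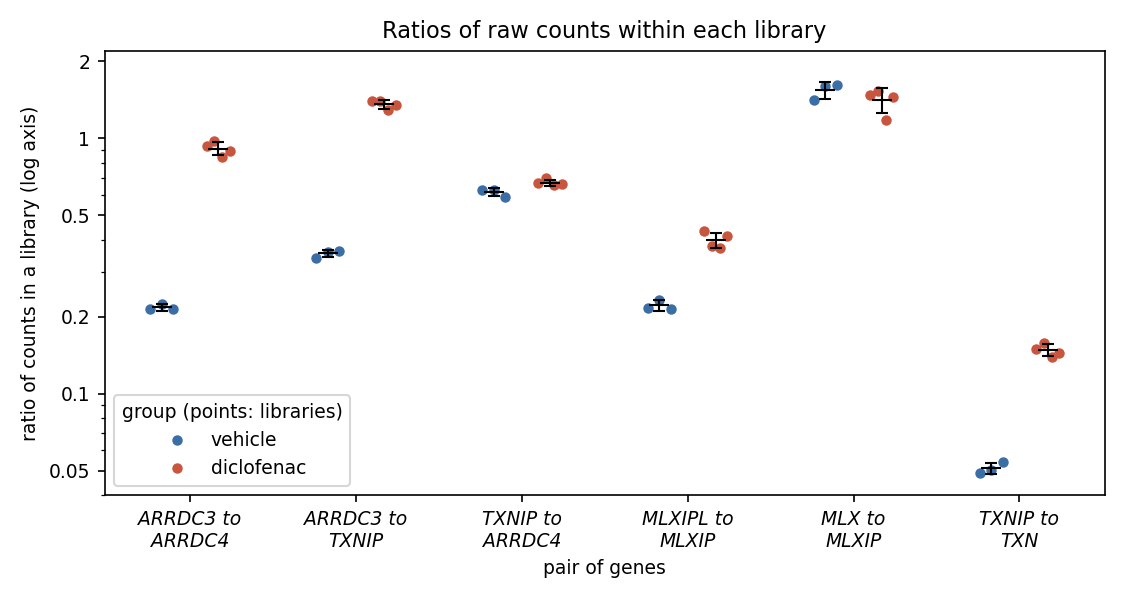
Ratio of raw counts (log axis) of 6 pairs of genes in each library, with vehicle in blue, diclofenac in red and black bars for the mean and SD. The ratios of ARRDC3 to ARRDC4 and to TXNIP shift most, that of TXNIP to ARRDC4 shifts little (0.615 to 0.670), and that of MLX to MLXIP overlaps between the groups.

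Levels of different genes were compared per kilobase of exon. With all annotated exons of a gene merged, the vehicle libraries gave the order MLX, ARRDC1, ARRDC4, TXNIP, MLXIP, ARRDC2, MLXIPL and ARRDC3, from 15.03 ± 0.828 down to 1.55 ± 0.0779 normalized CPM per kb. Each neighbour in that order was separate in all 3 libraries, though MLX and ARRDC1 (lowest 14.3 against highest 14.1), and MLXIP and ARRDC2 (2.84 against 2.80), only just. In the diclofenac libraries the order was ARRDC4, TXNIP, ARRDC3, MLX, ARRDC1, MLXIPL, ARRDC2 and MLXIP, from 17.8 ± 0.578 to 2.45 ± 0.194. TXNIP at 13.4 ± 0.393 and ARRDC3 at 13.4 ± 0.521 overlapped, as did MLXIPL with ARRDC2 and ARRDC2 with MLXIP.

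The place of ARRDC1 rested on the length used. Its merged exons span 3821 bases but its longest coding transcript only 1586, and per kilobase of longest coding transcript ARRDC1 came first in both groups, at 32.5 ± 1.37 and 22.8 ± 1.04 normalized CPM per kb. ARRDC3 went from the last place of 8 to the third with merged exons and to the fifth with the longest transcript. Of the summed level per kilobase of the 5 alpha-arrestins with TXNIP among them, ARRDC3 made up 4.79 ± 0.115% under vehicle and 23.7 ± 0.665% under diclofenac with merged exons, and 3.30 ± 0.0782% and 20.3 ± 0.544% with the longest transcript. That sum itself went from 32.3 ± 0.865 to 56.6 ± 0.767 normalized CPM per kb of merged exons.

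**Figure D4:**
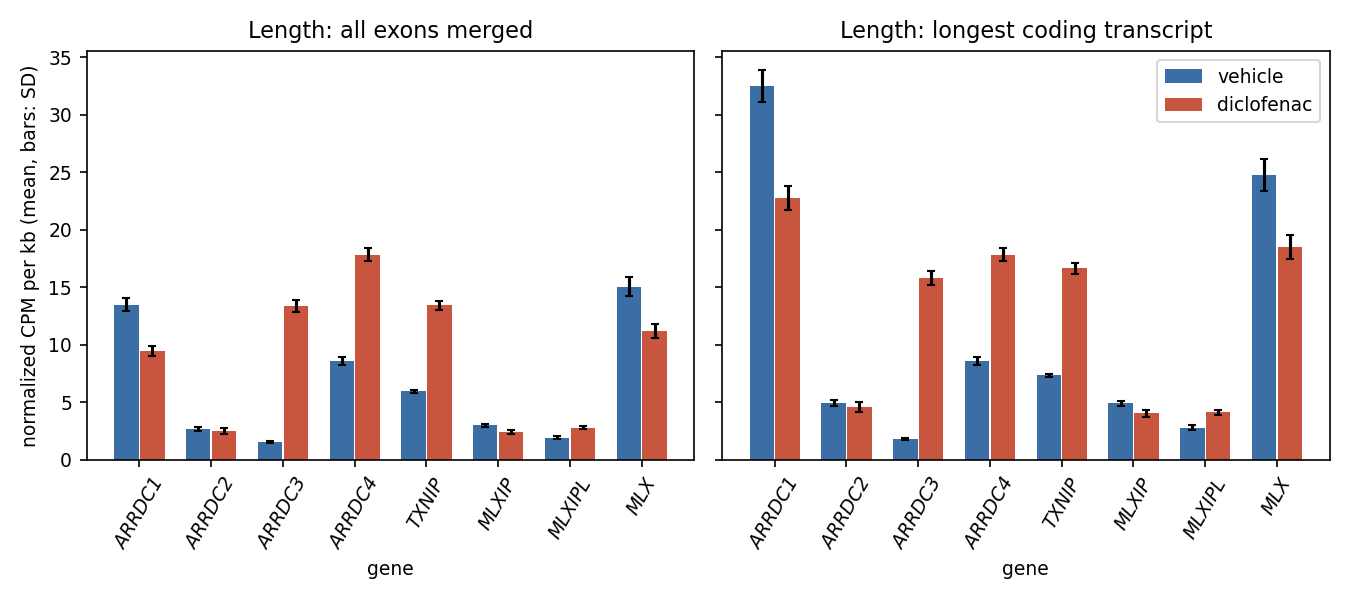
Mean level in normalized CPM per kb of the 7 genes and MLX under vehicle (blue) and diclofenac (red), with SD as error bars, for the length of all merged exons on the left and of the longest coding transcript on the right. ARRDC3 has the lowest vehicle bar on both sides, and ARRDC1 is highest only on the right.

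Neighbouring and overlapping genes were checked because the labels give a strand-keeping library kit but no strand setting of the counting. ARRDC3-AS1, a long non-coding RNA on the strand opposite to ARRDC3, shares 145 exon bases with it and was weakly expressed, with 98 counts over the vehicle and 238 over the diclofenac libraries. It rose by a log2 fold change of 0.75 (SE 0.186, adjusted p = 0.00211 by edgeR). Its counts came to 0.192 ± 0.0481 of those of ARRDC3 under vehicle and 0.0371 ± 0.00368 under diclofenac. ARRDC1-AS1 shares 29 exon bases with ARRDC1 and fell from 35.2 ± 1.65 to 29.6 ± 1.54 normalized CPM, a log2 fold change of -0.25 (SE 0.0570, adjusted p = 0.00109 by edgeR), but by total counts alone the call was lost (-0.07, adjusted p = 0.312). In the annotation ARRDC1 also shares 183 exon bases with AL590627.2 on its own strand, where no strand setting would separate the reads. The exons of ARRDC2 overlap an annotated opposite-strand gene over 442 bases, and those of MLX overlap PSMC3IP, also on the opposite strand, over 770 bases. Reads from such stretches shared by opposite strands cannot be told apart without the strand setting, those of ARRDC3 and ARRDC3-AS1 included.

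MLX and the wider MAX network, the family of paired factors in which MondoA, ChREBP and MYC act, held calls in both directions, as did all tested genes (30.2% higher and 29.5% lower). Of 11 genes tested, 4 rose and 5 fell by edgeR (median log2 fold change 0.03, against 0.02 for all tested genes). MLX fell from 64.0 ± 3.53 to 47.8 ± 2.68 normalized CPM, a log2 fold change of -0.42 (SE 0.0538, adjusted p = 2.81e-06 by edgeR). MYC, the growth-promoting oncogene, fell by 0.73 (SE 0.0482), and MXD4, a MAX-binding repressor, fell by 0.53 (SE 0.0518) on the log2 scale. MYCN rose by 2.46 (SE 0.414), from 7 counts over the vehicle libraries to 58 over the diclofenac ones. MXD1 lost its call without vehicle replicate 2 (adjusted p = 0.110), and MYCL without vehicle replicate 1 (0.0622) or 3 (0.0716).

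Other genes reported to respond to glucose through MondoA or ChREBP were more often lower than higher. Of 16 listed genes 14 were tested, 2 rose and 8 fell, while 30.2% of all tested genes were higher and 29.5% lower. The median log2 fold change was -0.15, against 0.02 for all tested genes. KLF10, a zinc finger repressor, rose from 13.4, 14.1 and 17.3 to 38.9, 36.6, 35.7 and 39.2 normalized CPM, a log2 fold change of 1.33 (SE 0.0756, adjusted p = 1.58e-10 by edgeR). That size was near those of TXNIP and ARRDC4. The fructose kinase KHK fell by 0.78 (SE 0.0547), and ACLY, which makes acetyl-CoA for fat synthesis, fell by 0.73 (SE 0.0483) on the log2 scale. The other rise, that of the desaturase SCD, was small (0.12, SE 0.0425) and lost its call without vehicle replicate 1 (adjusted p = 0.0761) or 2 (0.0912). ACACA, an enzyme of fat synthesis, was among the falls and lost its call without vehicle replicate 1 (adjusted p = 0.242) or diclofenac replicate 3 (0.0904) or 4 (0.0962). By total counts alone 4 rose, as ELOVL6 and ACACB joined KLF10 and SCD, and 6 fell. The calls of ACACA and PFKFB3, which makes a regulator of glycolysis, were lost there and with upper-quartile factors.

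Genes of glucose entry, the step that supplies glucose 6-phosphate to MondoA, split by isoform. Of 14 listed genes 10 were tested, 3 rose and 6 fell (median log2 fold change -0.34, against 0.02 for all tested genes). Of all tested genes 30.2% were higher and 29.5% lower. SLC2A1, the widespread transporter GLUT1 and a reported cargo of TXNIP, stood at 99.3, 94.6 and 96.2 normalized CPM under vehicle and at 53.2, 54.7, 51.5 and 56.9 under diclofenac. It fell by 0.84 on the log2 scale (SE 0.0462, edgeR adjusted p = 1.09e-10). SLC2A3, the high-affinity transporter GLUT3, rose from 2.97 ± 0.249 to 5.61 ± 0.345 normalized CPM, a log2 fold change of 0.92 (SE 0.118), and SLC2A12 rose by 0.80 (SE 0.160) from 122 counts over the vehicle libraries. Both were weakly expressed beside SLC2A1. SLC2A13 did not pass (0.18, SE 0.0837), but was called higher without diclofenac replicate 3 (adjusted p = 0.0331). It was also called higher by total counts alone (edgeR adjusted p = 0.00168), with upper-quartile factors (0.0104), with the stricter filter and with the replicate block. HK1, a hexokinase among the falls, lost its call by total counts alone (0.951) and with upper-quartile factors (0.103). HK2, an inducible hexokinase, fell by 0.49 (SE 0.0457) on the log2 scale.

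Few ligase partners of the alpha-arrestins passed the test at TMM scaling. Of 11 NEDD4 family ligases and NDFIP adaptors 10 were tested, 2 rose and none fell, while 59.7% of all tested genes were called. NEDD4 itself rose from 14.6 ± 1.29 to 23.7 ± 1.51 normalized CPM, a log2 fold change of 0.70 (SE 0.0739, adjusted p = 2.75e-07 by edgeR), and the adaptor NDFIP1 rose by 0.18 (SE 0.0434). ITCH, WWP1, WWP2, SMURF1, SMURF2, NEDD4L, HECW2 and NDFIP2 did not pass, with log2 fold changes from -0.02 to 0.11, though SMURF2 was called higher without diclofenac replicate 4 (adjusted p = 0.0443). This depended on the scaling, since all 10 were called higher by total counts alone and 5 with upper-quartile factors.

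Among 17 ESCRT and sorting genes, which sort ubiquitinated membrane proteins at endosomes, 4 rose and 4 fell (median log2 fold change 0.03). These shares were somewhat below the 30.2% and 29.5% of all tested genes. MVB12A fell by 0.41 (SE 0.0456) and the ATPase VPS4A by 0.37 (SE 0.0429), while STAM2 rose by 0.36 (SE 0.0615). TSG101, the partner of ARRDC1, did not pass (log2 fold change 0.10, SE 0.0529), but was called higher without vehicle replicate 2 (adjusted p = 0.0297) and by total counts alone. CHMP4C lost its call without vehicle replicate 1 (adjusted p = 0.0538), vehicle replicate 2 (0.0525) or diclofenac replicate 4 (0.0667), and VPS28 was called lower without diclofenac replicate 3 (0.0347). By total counts alone 10 rose and 2 fell.

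The remaining proteins with an arrestin fold did not rise at TMM scaling, where 30.2% of all tested genes were higher and 29.5% lower. Of 9 listed genes 6 were tested, none was higher and 3 fell at TMM scaling: the beta-arrestins ARRB1 by 0.28 (SE 0.0701) and ARRB2 by 0.15 (SE 0.0462), which quench G protein-coupled receptors, and the retromer subunit VPS26B by 0.26 (SE 0.0477). None of these falls remained by total counts alone, where ARRB2 turned to 0.03 and 3 others, VPS26A, VPS26C and RGP1, were called higher. On that scale ARRDC3, ARRDC4 and TXNIP were at 3.30, 1.23 and 1.36, ARRDC1 at -0.33 and ARRDC2 at 0.07. These members were chosen with the contrast between the groups known, so nothing is read from how they differ from the other arrestin-fold genes.

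Reported cargo of alpha-arrestins and TXNIP moved both ways, with 4 of 10 tested genes higher and 3 lower (median log2 fold change 0.21). These shares are near those of all tested genes (30.2% higher and 29.5% lower). EGFR, the epidermal growth factor receptor, rose from 6.88 ± 0.563 to 10.96 ± 0.922 normalized CPM, a log2 fold change of 0.66 (SE 0.0948, adjusted p = 9.77e-06 by edgeR). SLC2A1 fell as given above, and SLC2A4, the insulin-responsive transporter GLUT4, fell by 0.64 (SE 0.191) from 148 counts over the vehicle libraries. ITGB4, which encodes integrin beta 4, did not pass (log2 fold change 0.28, SE 0.122), but was called higher without vehicle replicate 3 (adjusted p = 0.0468). NOTCH1 and YAP1 lost their calls without vehicle replicate 2 (adjusted p = 0.0646 and 0.0529). F2R lost its call without vehicle replicate 1 (0.0626) or diclofenac replicate 4 (0.0516).

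Most tested genes on a list of the thioredoxin system, which TXNIP inhibits, and of TXNIP partners fell. Of 15 listed genes 14 were tested, 10 fell and 1 rose, while 29.5% of all tested genes were lower and 30.2% higher. The median log2 fold change was -0.44, against 0.02 for all tested genes. TXN stood at 432.7, 435.1 and 398.9 normalized CPM under vehicle and at 310.03, 315.1, 352.5 and 340.6 under diclofenac, a log2 fold change of -0.36 (SE 0.0530, adjusted p = 1.52e-05 by edgeR). The largest falls were those of 3 peroxiredoxins, which use thioredoxin to remove peroxides, with PRDX1 down by 0.83 (SE 0.0452), PRDX3 by 0.76 (SE 0.0470) and PRDX2 by 0.68 (SE 0.0460) on the log2 scale. PRDX4 fell by 0.42 (SE 0.0415) and PRDX6 by 0.24 (SE 0.0486), the latter not called by total counts alone. The thioredoxin reductase TXNRD1 was the gene that rose (0.14, SE 0.0462), and it lost its call without vehicle replicate 2 (adjusted p = 0.0803). PRDX5 did not pass, but was called lower without diclofenac replicate 3 (adjusted p = 0.00341) or vehicle replicate 3 (0.0208). NLRP3, the inflammasome sensor that can bind TXNIP, had too few counts to be tested.

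**Figure D5:**
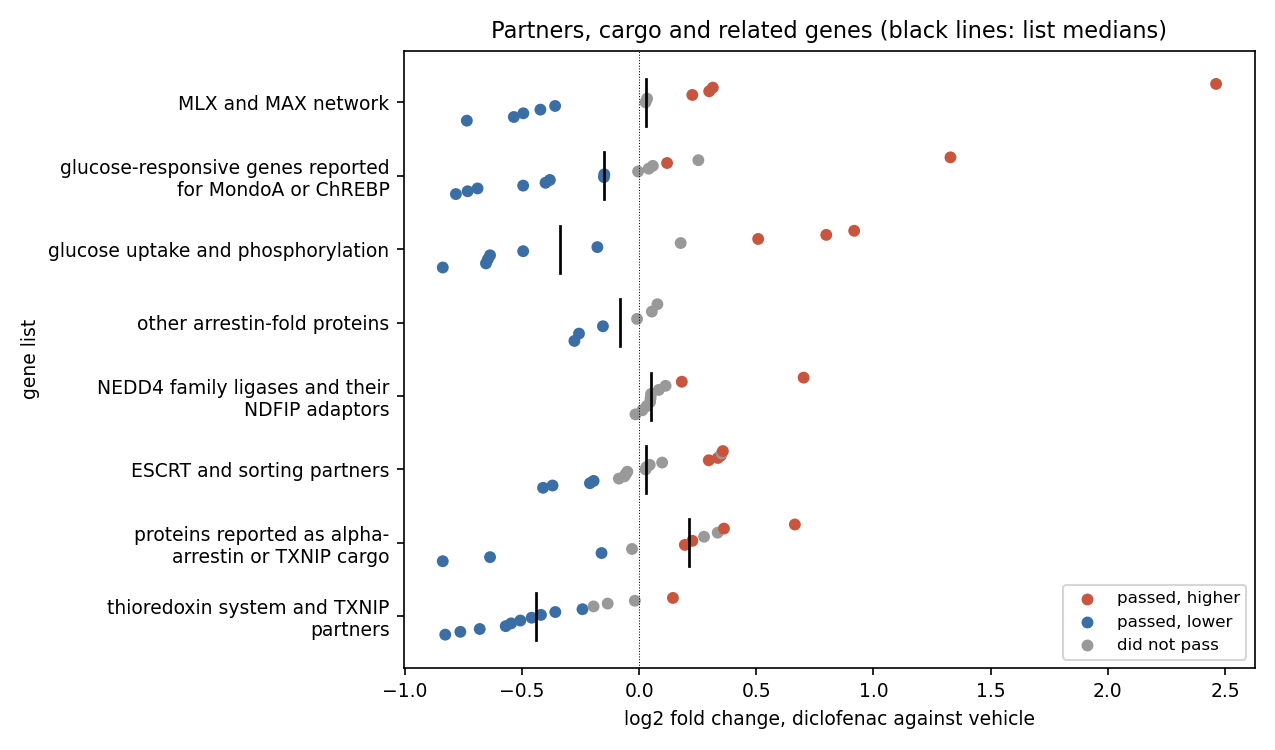
Log2 fold changes of the tested genes of 8 lists of partners, cargo and related genes, with genes called higher in red, called lower in blue and not called in grey, and each list's median as a black line. The thioredoxin list has the lowest median (-0.44), and the NEDD4 family genes crowd near 0 apart from NEDD4 itself.

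The genes whose pattern over the 7 libraries lay closest to ARRDC3, ARRDC4 and TXNIP were found among 9154 other genes above the median level, by the root mean square difference of log2 CPM after each gene was set relative to its own vehicle mean. The choice of ARRDC3 for its high fold change among such genes fixes that its neighbours lie far off, and the nearest were MALAT1, SLC16A9 and NEAT1, at 0.520, 0.587 and 0.690. MALAT1 and NEAT1 are nuclear non-coding RNAs. ARRDC4 had close neighbours in HMOX1, the heme oxygenase, at 0.0580, NHSL1 at 0.0588, and EIF4EBP1, an inhibitor of translation, at 0.0768. TXNIP lay nearest to SLC1A4, a neutral amino acid transporter, at 0.0753, PPP1R15A, a phosphatase subunit of the stress response, at 0.0805, and C22orf46 at 0.0829. With only 2 groups, this measure mostly finds genes with a like difference between them.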

How the data were processed

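RNA-seq counts of 7 libraries were used. The authors deposited raw counts per gene, not normalized. DESeq and a mouse build, GRCm38, appear in the submitters' processing notes, although the rows carry human symbols. Aligner, counter, annotation and strand setting are not given in the sources used here. Genes were filtered with filterByExpr (minimum count 10, minimum total 15), scaled by TMM and fitted in edgeR (4.0.16, under R 4.3.3) by quasi-likelihood, with group as the only term and Benjamini-Hochberg adjustment over all 18311 genes. SEs were derived from the F statistic. The steps were checked on simulated counts in which only a small share of genes was changed. That check does not cover scaling where most genes differ, as here.

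The members and gene lists were chosen with earlier results of these data known. Genes named are the 7 members, MLX, ARRDC5, the antisense rows, TXN, NEDD4, the 3 called genes of each list with the largest change, the 3 most like ARRDC3, ARRDC4 and TXNIP, and the 2 next after ARRDC3. Others are named where a count is spelled out or a call changed, and were chosen after their values were seen. GENCODE 29 gave exon lengths and overlaps. G6PC1 was matched under its older name. Alternatives were other scalings, DESeq2 1.42.0, limma 3.58.1 with trend (prior count 2), no filter or a stricter one (1 CPM in every library of a group), leaving out each library, and a replicate block. The length of the longest coding transcript was added after the data were seen. Protein sequences were not used here. Some genes of the lists are not reported here.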

Additional observations from a re-analysis of the deposited data

Results flagged for a closer look

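Of 43 named genes, 2 had 1 diclofenac library set apart from the other 3 by Dixon's criterion, which chance meets in about 1 of 20 groups of 4. KHK stood at 29.7 normalized CPM in diclofenac replicate 1 and at 26.7 to 27.2 in the others. VPS4A stood at 95.3 in diclofenac replicate 3 and at 89.4 to 90.4 in the others. Both lay below every vehicle library in all 4 diclofenac libraries. None of the 7 members was set apart in this way.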

How the results depend on the processing

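The log2 fold changes of 6 of the 7 members kept their direction under all 15 alternatives, with ARRDC3 from 3.07 to 3.30, ARRDC4 from 1.02 to 1.23, TXNIP from 1.15 to 1.36, MLXIPL from 0.49 to 0.74, ARRDC1 from -0.55 to -0.33 and MLXIP from -0.34 to -0.11. The exception was ARRDC2. Total counts alone gave 8635 higher and 3029 lower over all genes, 4 higher among glucose-responsive genes, 3 higher and 0 lower among other arrestin-fold genes (ARRB2 turned to a log2 fold change of 0.027), 10 higher among NEDD4 family genes, and 10 higher and 2 lower among ESCRT genes. Upper-quartile factors gave 2, 5 and 7 higher among arrestin-fold, NEDD4 family and ESCRT genes. With no filter, 1 glucose-responsive, 5 glucose entry and 0 thioredoxin genes were higher. Total counts alone and upper-quartile factors moved the median of all genes by 0.181 and 0.0884 on the log2 scale. For the filter the cause was not tested. Leaving out 1 library gave 1 to 2 higher among glucose-responsive genes and 0 to 1 among thioredoxin genes. With the replicate number as a block, which leaves out diclofenac replicate 4, 9831 genes were called in place of 10937, and 1 glucose-responsive gene was higher and 6 lower. The labels do not say that numbers pair libraries, and same-numbered libraries had correlations of 0.000867, 0.0216 and -0.0474 after group means were removed. Depth limits MYCN, SLC2A4, SLC2A12 and ARRDC3-AS1 most.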
